A study of Rattus norvegicus with 10 samples.

Results

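The loci of 4 genes of fat storage and fat signalling were examined for open chromatin in rat white adipose tissue and skeletal muscle: Adipoq, Lep, Cebpa and Lpl. Each locus is the gene with about 50 kb on either side, on build rn6: chr11:81280000-81395000 for Adipoq (115 kb), chr4:56287000-56402000 for Lep (115 kb), chr1:91313000-91416000 for Cebpa (103 kb) and chr16:22487000-22612000 for Lpl (125 kb). Members were the listed peaks overlapping one of these intervals, 651 of 2119819 over 10 libraries, with 135 at Adipoq, 138 at Lep, 175 at Cebpa and 203 at Lpl. The rule uses position and no measured value. The stretch left when 50 kb is taken off either end, called the centre below, is the gene itself to within the rounding of the interval: 15.0 kb at Adipoq and Lep, 3.0 kb at Cebpa and 25.0 kb at Lpl.

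The libraries are ATAC-seq, in which the Tn5 transposase cuts accessible DNA in isolated nuclei. The groups were 5 libraries of abdominal white adipose tissue and 5 of gastrocnemius muscle, a calf muscle, all from Fischer 344 rats labelled male and aged 8 months, with no treatment other than acclimatisation to a reversed light cycle. About 75000 nuclei went into each library. A sample is either 1 animal or an aliquot of tissue from 15 pooled males, and the labels do not say which, so the p-values measure the spread between libraries, part of which may be technical. Both tissues are mixtures of cells, and fewer cells of a type cannot be told apart from less accessibility per cell. Of the adipocyte markers, these 4 genes alone could be placed on rn6, and each locus held strong peaks in all 10 libraries.

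Adiponectin (Adipoq) and leptin (Lep) are hormones that adipocytes release into the blood. Adiponectin raises insulin sensitivity and fatty acid oxidation in liver and muscle, and leptin reports the size of the fat stores to the hypothalamus and restrains feeding. C/EBPα (Cebpa), encoded by a gene without introns, is a basic leucine zipper transcription factor that drives adipocyte differentiation together with PPARγ and is known to act on the leptin promoter. Lipoprotein lipase (Lpl) splits the triglycerides of circulating lipoproteins at the capillary wall, and both fat and working muscle make it.

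The proximal promoters of 3 of the 4 genes, all but Lpl, matched a RefSeq entry, and they are shown because C/EBPα, one of the 4 gene products, has a known binding sequence. They are the 250 bases before the annotated start in build GRCr8, a later assembly than rn6, at chr11:91240170-91240419 (minus strand) for Adipoq, chr4:58626288-58626537 (plus strand) for Lep and chr1:96896334-96896583 (plus strand) for Cebpa. Lines run 5′ to 3′, and capitals mark matches on either strand to the motifs searched. These were TTGCGCAA, the C/EBP palindrome, its looser form TTGCNNAA, the nuclear receptor element AGGTCA, the CCAAT box, which reads ATTGG on the other strand, the TATA element TATAA, and the Sp1 box GGGCGG, which reads CCGCCC on the other strand.
Adipoq: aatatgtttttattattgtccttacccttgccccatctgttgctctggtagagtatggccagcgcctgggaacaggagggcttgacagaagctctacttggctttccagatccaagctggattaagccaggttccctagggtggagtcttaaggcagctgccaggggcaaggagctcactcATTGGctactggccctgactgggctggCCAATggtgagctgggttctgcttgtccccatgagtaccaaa
Lep: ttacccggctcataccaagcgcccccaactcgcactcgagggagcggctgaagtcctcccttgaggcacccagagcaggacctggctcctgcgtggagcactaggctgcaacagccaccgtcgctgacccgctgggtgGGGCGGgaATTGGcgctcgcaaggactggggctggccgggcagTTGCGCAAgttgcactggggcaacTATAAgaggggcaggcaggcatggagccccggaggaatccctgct
Cebpa: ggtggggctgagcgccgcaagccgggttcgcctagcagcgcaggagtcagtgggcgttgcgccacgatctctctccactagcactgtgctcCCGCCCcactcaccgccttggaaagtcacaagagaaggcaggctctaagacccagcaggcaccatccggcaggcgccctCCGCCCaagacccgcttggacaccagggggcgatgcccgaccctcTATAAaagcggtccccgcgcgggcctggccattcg
The Lep promoter held TTGCGCAA from 69 to 62 bases upstream of the start, a sequence found in 0.140% of 33469 RefSeq promoters cut to the same length. The same 8 bases are also its match to TTGCNNAA, present in 9.22% of promoters. Lep further held a TATA element at 45 to 41 bases upstream, 1 CCAAT box and 1 Sp1 box. Adipoq held 2 CCAAT boxes, at 69 to 65 and 42 to 38 bases upstream, and Cebpa held a TATA element at 35 to 31 bases upstream and 2 Sp1 boxes. The CCAAT box occurred in 34.0%, the TATA element in 24.0%, the Sp1 box in 30.5% and the nuclear receptor element in 14.1% of promoters. The nuclear receptor element was matched in none of the 3 windows, and the looser C/EBP form in neither Adipoq nor Cebpa. Cebpa and Lep promoters were rich in CpG, with 21 and 15 CpG pairs against a median of 5, and Adipoq had 1. A match is a match of letters only, and these GRCr8 sequences cannot be placed on the rn6 peaks below.

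A peak is called strong where its −log10 q reaches 5, since the adipose and muscle lists end at different p-values and strong peaks lie above both ends. A library held 52560 to 94767 strong peaks in adipose and 89306 to 119528 in muscle, and relative depth, taken from the step between neighbouring fold values, ran from 0.719 to 1.25 in adipose and from 0.833 to 1.21 in muscle. Adipose replicates 2, 3 and 4 listed 0, 0 and 1 peaks on the Y chromosome, against 31 and 45 in replicates 1 and 5 and 16 to 24 in muscle, although every animal is labelled male. Results are therefore also given for adipose replicates 1 and 5 alone. Adipose replicate 1 was the shallowest library and had the fewest strong peaks.

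Cebpa was the locus with more strong peaks in adipose than in muscle, relative to the strong peaks of each library. The other loci did not pass this test. The Adipoq interval held 3, 10, 6, 7 and 4 strong peaks in adipose replicates 1 to 5 and 6, 7, 5, 7 and 11 in muscle replicates 1 to 5. The Lep interval held 3, 12, 8, 8 and 6 in adipose and 8, 7, 8, 5 and 8 in muscle. The Cebpa interval held 6, 20, 16, 11 and 12 in adipose and 10, 7, 10, 11 and 11 in muscle. At Lpl there were 7, 12, 12, 8 and 10 in adipose and 11, 12, 10, 6 and 17 in muscle. The tissues overlapped at every locus, and adipose replicate 2 was the highest adipose library at all of them, tied with replicate 3 at Lpl.

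**Figure D1:**
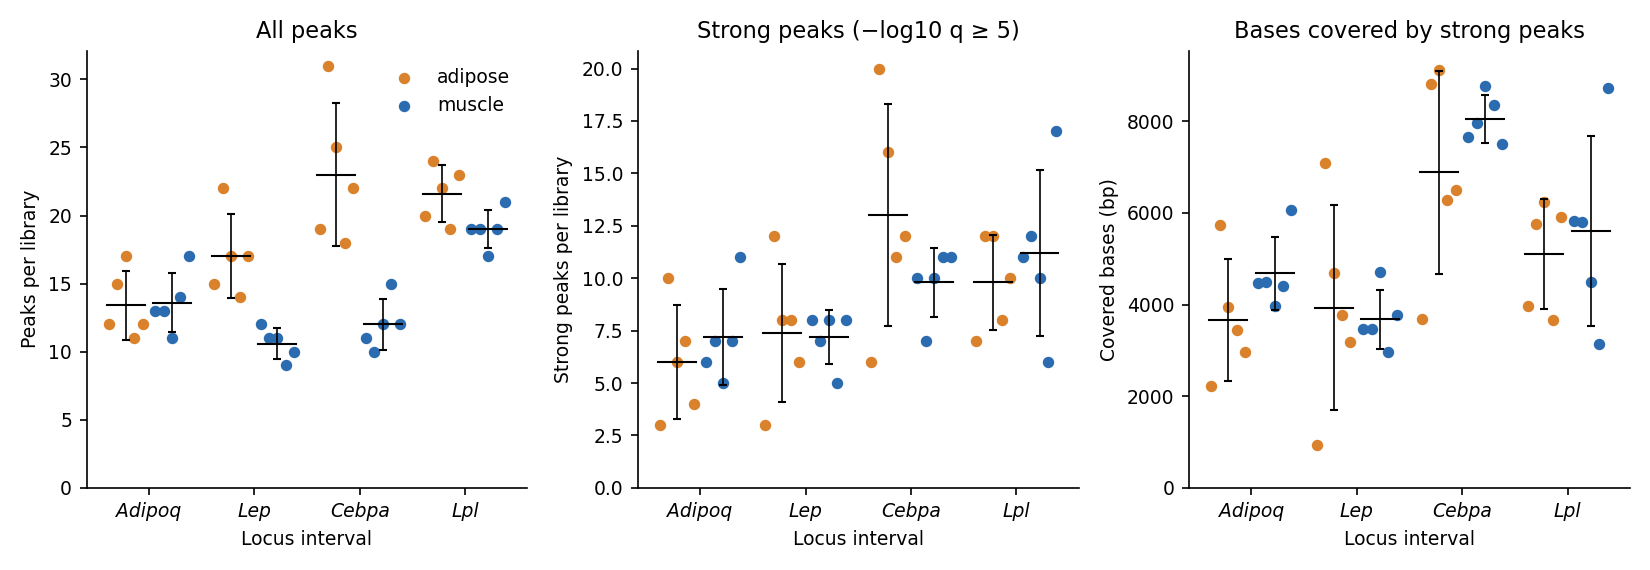
Peaks (left), strong peaks (middle) and bases covered by strong peaks (right, bp) in each interval; each point is a library (orange adipose, blue muscle) and bars are the mean and SD of 5 libraries. At Lep and Cebpa all adipose libraries list more peaks than any muscle library in the left plot, which the middle plot does not show. Adipose lists are longer over the whole genome, and these counts are not scaled.

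On the log2 scale of strong peaks per 100000 of the library plus 0.5, the difference of adipose minus muscle was 0.62 at Cebpa (SE 0.19, limma adjusted p = 0.0186). It was 0.24 at Lep (SE 0.21, adjusted p = 0.373), 0.17 at Lpl (SE 0.19, adjusted p = 0.502) and -0.01 at Adipoq (SE 0.23, adjusted p = 0.978). The same test called 20.3% of 16985 autosomal windows of 100 kb as higher in adipose and 24.3% as higher in muscle, so 1 locus of 4 in adipose and 0 of 4 in muscle is near the background. Among those windows, whose median was -0.02, Cebpa stood at percentile 77.0, Lep at 62.2, Lpl at 58.6 and Adipoq at 50.4. With no scaling to the library the windows split 2006 to 5424 in place of 3445 to 4123, the median moved to -0.29, Lep and Lpl turned to -0.06 and -0.14, and Cebpa gave 0.31 (adjusted p = 0.396). With adipose replicates 1 and 5 alone Cebpa gave 0.39 (adjusted p = 0.122), Adipoq -0.38, Lep -0.14 and Lpl 0.24, and none of the 4 passed. Cebpa also missed the threshold in 4 more of the 21 alternatives, and none turned its direction.

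Counting every listed peak kept the loci in the same order but put Adipoq and Lpl on the muscle side relative to the length of each list, Lpl with the opposite sign when unscaled. All 5 adipose libraries listed more peaks at Lep (15, 22, 17, 14 and 17) than any muscle library (12, 11, 11, 9 and 10). The same held at Cebpa, with 19, 31, 25, 18 and 22 in adipose and 11, 10, 12, 15 and 12 in muscle. The share of windows over the genome with such a separation was not counted, so it is not read as particular to these loci. At Adipoq the counts overlapped, with 12, 15, 17, 11 and 12 in adipose and 13, 13, 11, 14 and 17 in muscle. Lpl counts overlapped too, with 20, 24, 22, 19 and 23 in adipose and 19, 19, 17, 19 and 21 in muscle. Adipose lists are longer throughout, and relative to 100000 peaks of the library the difference was 0.38 at Cebpa (SE 0.15, limma adjusted p = 0.0312), 0.14 at Lep (SE 0.14, adjusted p = 0.380), -0.32 at Lpl (SE 0.11, adjusted p = 0.0142) and -0.50 at Adipoq (SE 0.16, adjusted p = 0.00726). With every list cut at the same −log10 p the Lpl and Adipoq calls were lost, at -0.21 (adjusted p = 0.148) and -0.42 (adjusted p = 0.0509). The Cebpa call was lost in 5 of 10 fits with 1 library left out (adjusted p from 0.0128 to 0.115) and with 25 kb trimmed (0.11, adjusted p = 0.659). This test called 43.8% of 25115 windows as higher in adipose and 29.9% as higher in muscle, so calls of 1 and 2 loci of 4 are near the background here as well. The median window stood at 0.34, so Cebpa was at percentile 50.9 of the windows, Lep at 45.7, Lpl at 33.8 and Adipoq at 27.9. Without scaling the windows split 13536 to 3817 in place of 11001 to 7498 around a median of 0.84, and the values were 0.90 at Cebpa, 0.65 at Lep (adjusted p = 9.38e-04), 0.18 at Lpl, which thereby changed sign, and -0.03 at Adipoq (adjusted p = 0.893). Cebpa stood at percentile 51.1 and Lep at 46.1 of the unscaled windows, near their median. With adipose replicates 1 and 5 alone Cebpa was at 0.24 (adjusted p = 0.254), Lpl at -0.33 (adjusted p = 0.0537) and Adipoq at -0.64 (adjusted p = 0.0113).

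**Figure D2:**
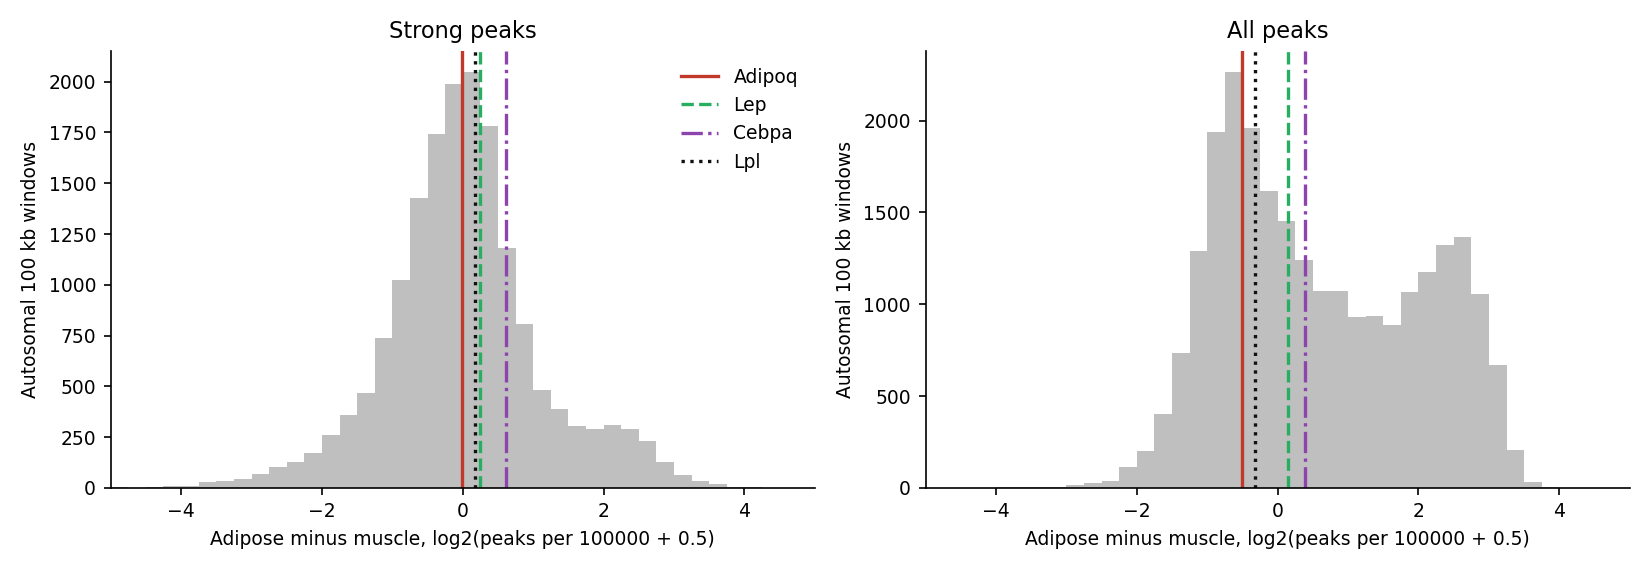
Number of autosomal 100 kb windows (vertical axis) by their difference of adipose minus muscle in log2(peaks per 100000 + 0.5) (horizontal axis), for strong peaks (left) and all listed peaks (right); vertical lines are the 4 loci. All 4 loci lie within the body of the windows, with Cebpa farthest to the adipose side in both plots and Adipoq farthest to the muscle side.

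The length covered by strong peaks did not differ past the test at any of the 4 loci with all libraries and a −log10 q threshold of 5. At Adipoq they covered 3664 ± 1322 bp in adipose and 4680 ± 799 bp in muscle (mean ± SD of 5 libraries), a difference of -1016 bp (two-sided exact permutation p = 0.183). The covered length at Lep was 3934 ± 2239 and 3675 ± 645 bp (n = 5 each, exact permutation p = 0.786). At Cebpa it was 6884 ± 2212 and 8050 ± 516 bp (n = 5 each, exact permutation p = 0.302). These lengths are not scaled to the library, unlike the peak numbers, and scaled to 100 Mb of strong peaks the Cebpa difference turned to 1220 bp (exact permutation p = 0.452). It reached -2192 bp at a −log10 q threshold of 10 (exact permutation p = 0.00794) and -1193 bp in the 50000 strongest peaks (exact permutation p = 0.0476). At Lpl it was 5104 ± 1199 and 5596 ± 2075 bp (n = 5 each, exact permutation p = 0.675). The smallest p this design allows is 0.00794. Adipose libraries spread widely at Lep, from 940 bp in replicate 1 to 7089 bp in replicate 2. Leaving out adipose replicate 2 alone brought Adipoq to -1535 bp (exact permutation p = 0.0159) and turned Lep to -529 bp (exact permutation p = 0.579). Without adipose replicate 1 Cebpa moved to -364.9 bp (exact permutation p = 0.603), and without muscle replicate 5 Lpl turned to 292.1 bp (exact permutation p = 0.730). With adipose replicates 1 and 5 alone the difference was -2086 bp at Adipoq and -2960 bp at Cebpa (exact permutation p = 0.0476 each, the smallest that 2 against 5 libraries allow) and -1610 bp at Lep (exact permutation p = 0.0952). These are the shallowest adipose libraries, with relative depths of 0.719 and 0.769, and the part of depth was not tested.

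Per length, Cebpa was the most densely covered of the 4 loci in muscle. Strong peaks took up 7.29 to 8.52% of its interval in the 5 muscle libraries, above every muscle value at Lpl (2.50 to 6.99%), Adipoq (3.45 to 5.27%) and Lep (2.58 to 4.09%). The ranges of the latter 3 overlapped one another. In adipose the medians ran in the order Cebpa (6.31%), Lpl (4.598%), Lep (3.28%) and Adipoq (2.99%). All adipose ranges overlapped, from 3.57 to 8.86% at Cebpa, 2.93 to 4.99% at Lpl, 0.817 to 6.16% at Lep and 1.94 to 4.99% at Adipoq.

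Strong peaks of the 10 libraries merged into 88 regions over the 4 intervals, 19 at Adipoq, 19 at Lep, 21 at Cebpa and 29 at Lpl. Of these, 27 were found in 1 library, 61 in 2 or more and 7 in all 10. Adipose libraries alone held 35 regions, muscle libraries alone 20, and 33 were found in both tissues. Over the genome the shares of 229372 regions were 39.5%, 28.3% and 32.2%. Of the regions here, 19 of the 35 and 8 of the 20 rested on 1 library. At Cebpa 10 regions were seen in adipose alone, 4 of them in 1 library, and 0 in muscle alone. A region counts as shared through a single peak: chr1:91370459-91372257 at Cebpa had folds of 7.59 to 14.8 in all 5 muscle libraries and was strong in adipose replicate 3 alone, at 3.25. Adipoq had 7 of either kind, Lep 8 and 5, and Lpl 10 and 8.

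**Figure D3:**
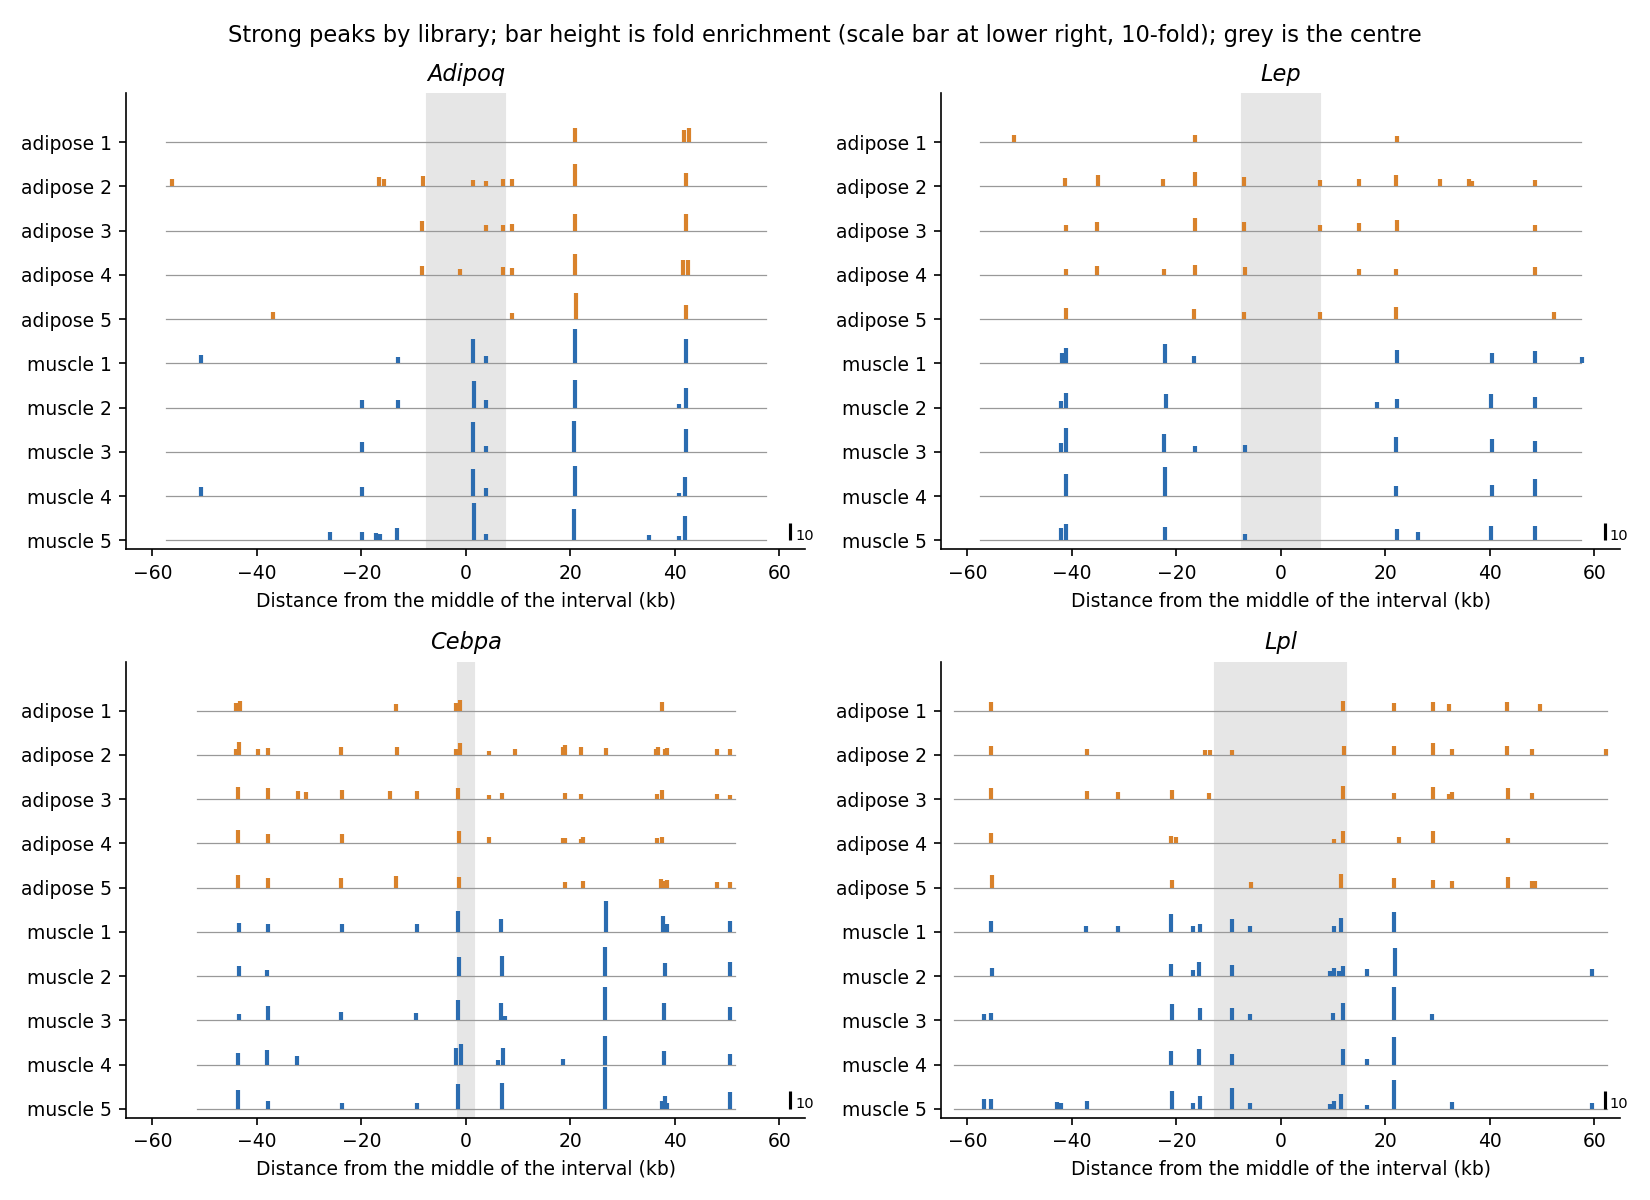
Strong peaks of each library along the 4 intervals; the horizontal axis is distance from the middle of the interval (kb), each row is a library (orange adipose, blue muscle), bar height is fold enrichment with a 10-fold scale bar, and grey marks the centre. The tallest bars are in muscle rows, and the bar just right of the Adipoq middle and the bar near +27 kb at Cebpa are tall in all 5 muscle rows.

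In total 3 regions were found in all libraries of one tissue and in none of the other, each with Fisher's exact p = 0.00794 and an adjusted p of 0.0483. Adipose had 1, at chr16:22592329-22593275 in the Lpl interval, 43.3 kb above its middle. Its fold enrichments, as the authors' peak caller gave them at each summit, were 4.88, 5.13, 6.05, 3.30 and 6.17 in the adipose libraries. Muscle had 2. One lay in the Lep interval at chr4:56384449-56385093, 40.3 kb above the middle, with folds of 5.76, 7.68, 7.10, 6.25 and 8.08. The other lay in the Lpl interval at chr16:22533517-22534255, 15.6 kb below the middle and outside the centre, with folds of 4.68, 8.05, 7.19, 9.14 and 7.30. For all 3, the other tissue had no listed peak. Adipose lists end at a lowest −log10 p of 3.26 to 4.27 and muscle lists at 2.00, so weak adipose peaks could go unlisted. Over the genome 1.44% of 141646 tested regions were exclusive to adipose and 15.0% to muscle, beside 1 and 2 of the 61 tested here. The pattern of 5 libraries against 0 is the strongest the design can show, and its adjusted p was 0.0531 where a peak had to cover 50% of the region and 0.0705 at a −log10 q of at least 3.

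Other regions were strong in several libraries of one tissue and none of the other. Counting the 3 regions above, in 14 regions at least 3 adipose libraries and 0 muscle libraries had a strong peak, and in 8 at least 3 muscle and 0 adipose libraries did. Over the genome such regions made up 5.05% and 14.5% of 229372 strong regions, beside 14 and 8 of 88 here. The 14 were 3 at Adipoq, 3 at Lep, 6 at Cebpa and 2 at Lpl, and the 8 were 3, 2, 0 and 3. Apart from the 3 regions above, none passed after adjustment. Of the 10 found in exactly 3 adipose libraries, 6 were in replicates 2, 3 and 4, which made up 33.2% of such regions on the autosomes. These replicates have almost no Y peaks, and they are also the deepest adipose libraries, with relative depths of 0.922, 0.988 and 1.25. Some of the regions were weaker peaks elsewhere: the Cebpa region at chr1:91350872-91351568, strong in 3 adipose libraries with a mean fold of 5.05, was listed in 5 adipose and 0 muscle libraries.

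Folds of regions open in all 10 libraries leaned to muscle over the whole genome, as did 6 of the 7 such regions here. Of 24385 shared regions, 84.3% had the higher mean fold in muscle, and the median ratio of adipose to muscle was 0.718. Muscle folds lay above all adipose folds in 47.1% of them and adipose folds above all muscle folds in 1.92%. In the 4 intervals 4 of the 7 had muscle above adipose without overlap, and 0 had adipose above muscle throughout. These folds are given as descriptions and were not tested between libraries.

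**Figure D4:**
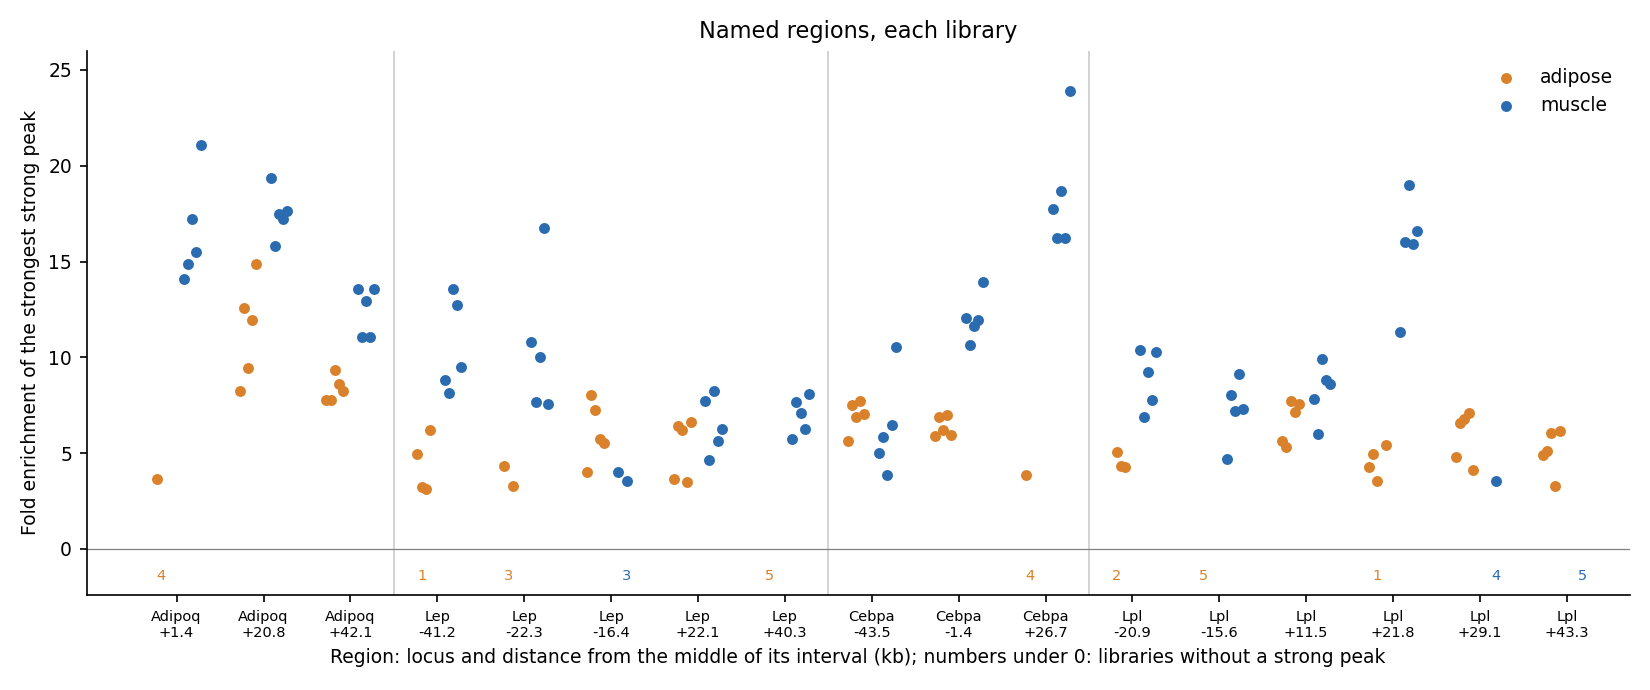
Fold enrichment (vertical axis) of the strongest strong peak of each library in the named regions (horizontal axis, by locus and distance from the middle in kb); each point is a library (orange adipose, blue muscle), and numbers under 0 count libraries without a strong peak. Muscle points reach 21.1 at Adipoq +1.4, 23.9 at Cebpa +26.7 and 19.0 at Lpl +21.8, where adipose points stay between 3.54 and 5.44 or are a single library.

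At Adipoq the strongest region in every adipose library was shared with muscle. It lay at chr11:81357697-81358877, 20.8 kb above the middle and outside the centre, with folds of 8.25, 12.6, 9.45, 12.0 and 14.9 in adipose and 19.4, 15.8, 17.5, 17.2 and 17.6 in muscle. The widest shared region, chr11:81378728-81380396 (1669 bp, 42.1 kb above the middle), had 7.76 to 9.35 in adipose and 11.1 to 13.6 in muscle. Neither pair of fold ranges overlapped. Ranked by fold among all listed peaks of its own library, the first region stood at percentile 96.6 to 99.4 in adipose and 94.7 to 98.5 in muscle. The widest region stood at 95.0 to 96.9 in adipose and 89.2 to 94.5 in muscle, the reverse of the folds. In GRCr8 the protein-coding genes within 50 kb of Adipoq are Rfc4, a subunit of the DNA clamp loader, and Eif4a2, a translation initiation helicase, and peaks outside the centre were assigned to no gene.

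The Adipoq gene itself held a region that was much stronger in muscle. The region at chr11:81338648-81339255, 1.45 kb above the middle and within the centre, had folds of 14.1, 14.9, 17.2, 15.5 and 21.1 in muscle. In adipose it was strong in replicate 2 alone, at 3.65, and listed in 4 libraries at 2.17 to 3.65 (Fisher's exact p = 0.0476, adjusted p = 0.178). A second centre region, chr11:81341114-81341611, was strong in 5 muscle and 2 adipose libraries at folds of 3.21 to 4.63 and 2.99 to 3.16. The region at chr11:81344412-81344785 was strong in 3 adipose and 0 muscle libraries, at 3.08 to 4.50, and listed in 5 and 2. The remaining centre region was in adipose replicate 4 alone. Adipose replicates 1 and 5 thus had no strong peak within the centre, although each listed 3 peaks there.

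Lep had the lowest mean top fold of the 4 loci in both tissues. The top fold of a library was 6.36 ± 1.52 in adipose and 11.7 ± 3.43 in muscle (mean ± SD of 5 libraries), with ranges of 4.11 to 8.04 and 8.13 to 16.7 that overlapped those of Lpl (5.64 to 7.70 and 11.3 to 19.0). The strongest adipose region, chr4:56327730-56328370, lay 16.4 kb below the middle, with 3.99, 8.04, 7.27, 5.72 and 5.51 in adipose and 4.03 and 3.55 in the 2 muscle libraries that had it strong. The strongest muscle regions were chr4:56321719-56322677, at 10.8, 7.68, 10.0, 16.7 and 7.59 in muscle and 4.35 and 3.29 in 2 adipose libraries, and chr4:56302839-56303798, at 8.13 to 13.6 in muscle and 3.12 to 6.19 in 4 adipose libraries. Percentiles by fold of the strong peaks overlapped at both muscle regions. They were 64.6 to 81.1 in adipose and 73.9 to 97.3 in muscle at the first, and 56.0 to 90.8 and 80.4 to 93.9 at the second. At the strongest adipose region they did not overlap, at 82.5 to 95.4 in adipose and 54.6 to 62.3 in muscle. The only Lep region strong in all 10 libraries, chr4:56366007-56367128, had 3.47 to 6.64 in adipose and 4.64 to 8.23 in muscle, which overlapped. RBM28, a nucleolar protein, and the microRNA Mir129-1 have genes within 50 kb of Lep in GRCr8.

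The Lep gene itself held few strong peaks, none of which separated the tissues past the test. Its centre held 2 strong regions, chr4:56337249-56337918 in 4 adipose and 2 muscle libraries (3.88 to 5.60 and 3.46 to 3.91) and chr4:56351793-56352291 in 3 adipose and 0 muscle libraries (2.96 to 4.02). Both were listed at some strength in all 5 adipose libraries and in 3 and 1 muscle libraries. Fisher's exact p was 0.524 and 0.167. Per library the centre held 0, 2, 2, 1 and 2 strong peaks in adipose and 0, 0, 1, 0 and 1 in muscle. After 25 kb was taken off either end of the interval, which leaves the gene and part of its flanks, Lep gave 0.70 (limma adjusted p = 0.0234) for strong peaks, in place of 0.24. That fit called 3445 of 16985 windows as higher in adipose, and Lep stood at percentile 79.0 of the windows. The windows are 100 kb long, longer than this trimmed stretch, so the ranking is not between equal lengths. Over all listed peaks the same stretch gave 0.12 (limma adjusted p = 0.622).

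At Cebpa a region reaching into the centre was open in every library of both tissues. This region, chr1:91362144-91364161, spanned the lower edge of the centre, at 91363000, and was the widest shared region of the locus, at 2018 bp. It had folds of 5.88, 6.90, 6.23, 6.997 and 5.97 in adipose and 12.1, 10.6, 11.6, 12.0 and 13.9 in muscle, with no overlap. Its percentile by fold within each library did overlap, at 90.0 to 94.8 in adipose and 89.8 to 92.8 in muscle. Its median summits lay 30 bp apart between the tissues, with a spread of 20 bp among adipose and 32 bp among muscle libraries. The ratio of means was 0.531, beside the median of 0.718 over shared regions.

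The strongest Cebpa region of all lay 26.7 kb above the middle, at chr1:91390663-91391760, in muscle. Folds there were 17.7, 16.2, 18.7, 16.2 and 23.9 in muscle, and adipose replicate 2 alone had a strong peak, at 3.86, while 3 adipose libraries listed one of 2.83 to 3.86 (Fisher's exact p = 0.0476, adjusted p = 0.178). Below the gene, chr1:91320292-91321677 was 1 of the 2 top adipose regions, with 5.62, 7.53, 6.87, 7.74 and 7.04 in adipose and 4.99, 5.84, 3.85, 6.49 and 10.6 in muscle. It was the only shared region of the 7 with the higher mean in adipose, 6.96 ± 0.829 against 6.35 ± 2.55 (SD, n = 5 each), and its fold ranges overlapped. Its percentile by fold within each library did not overlap, at 92.8 to 95.7 in adipose and 58.0 to 83.3 in muscle. The other named genes within 50 kb of Cebpa in GRCr8 are 3 uncharacterised non-coding RNAs.

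Lpl held both kinds of exclusive region and a strong muscle region in addition. The region at chr16:22570717-22571905, 21.8 kb above the middle, had folds of 11.3, 16.0, 19.0, 15.9 and 16.6 in muscle. The 4 adipose libraries with a strong peak there had 4.26, 4.94, 3.54 and 5.44, and the fifth, replicate 4, listed it at 3.16. Percentiles by fold of the strong peaks were 67.1 to 87.4 in adipose and 91.8 to 98.1 in muscle, without overlap. Below the gene, chr16:22528183-22529005 had 6.88 to 10.4 in muscle and 4.30 to 5.05 in 3 adipose libraries. Its percentiles by fold overlapped, at 80.4 to 90.2 in muscle and 78.9 to 85.5 in those adipose libraries. On the other side chr16:22578221-22578973, 29.1 kb above the middle, had 4.81, 6.58, 6.80, 7.07 and 4.12 in adipose and was strong in 1 muscle library, replicate 3, at 3.55 (Fisher's exact p = 0.0476, adjusted p = 0.178). It was also listed, without reaching the q threshold, in muscle replicates 1 and 4, at 3.07 and 3.57.

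The Lpl centre held more strong peaks in muscle than in adipose, and many windows of the genome were called the same way. Per library the centre held 1, 2, 1, 2 and 2 strong peaks in adipose and 4, 5, 4, 2 and 5 in muscle. Muscle replicate 4 equalled the highest adipose libraries, and the rest of muscle lay above. Adipose replicates 1 and 5 had 1 and 2. On the scale of strong peaks per 100000 the centre alone gave -0.84 (limma adjusted p = 0.0225), beside 0.17 for the whole interval scaled in this way and -0.14 unscaled, neither of which passed. Strong peaks covered 1169 ± 535 bp of the Lpl centre in adipose and 2316 ± 864 bp in muscle (mean ± SD of 5 libraries, exact permutation p = 0.0397). At the other centres the covered length differed by -474 bp at Adipoq and 420 bp at Lep (exact permutation p = 0.0556 each). At the Cebpa centre it differed by -25.6 bp (exact permutation p = 0.817). These p-values are not adjusted for the 4 loci. Over all listed peaks the Lpl centre gave -0.65 (limma adjusted p = 0.0108), at percentile 22.7, where 7498 of 25115 windows were called as higher in muscle. For the number of strong peaks the differences were -0.76 (limma adjusted p = 0.287) at the Adipoq centre and 0.23 (adjusted p = 0.551) at the Cebpa centre, and Lep held too few to be fitted. The region at chr16:22539889-22540594, 9.26 kb below the middle, was strong in all 5 muscle libraries at 6.18 to 11.7 and in 1 adipose library at 2.98 (Fisher's exact p = 0.0476, adjusted p = 0.178). The widest shared region, chr16:22560009-22561993 at the upper end of the centre, had overlapping folds, with 5.64, 5.32, 7.70, 7.15 and 7.58 in adipose and 7.80, 6.02, 9.91, 8.82 and 8.62 in muscle. Its percentiles by fold leaned the other way, at 87.8 to 95.0 in adipose and 76.7 to 88.1 in muscle, and overlapped slightly.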

How the data were processed

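Per the submitters' processing notes, FastQC, Trimmomatic, Bowtie2, Picard and MACS2 were used with build rn6. Versions, transposase shift and the handling of duplicates are not given in the sources used here. Peaks were called per library by the authors. Each deposited row gives a score, a fold enrichment at the peak's summit (a ratio to the peak caller's background), and a −log10 p and a −log10 q from the authors' peak caller. Rows with the same interval were counted as 1 peak. Deposited adipose lists stop by length, at a lowest −log10 p of 3.26 to 4.27, and muscle lists at 2.00. Folds were used to describe peaks. The study had 9 samples of either tissue by its design text; 5 are used, and the others were not analysed here. Read totals are unknown, so depth is relative and no counting interval is given.

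The peaks of each locus were tested with limma 3.58.1 in R 4.3.3 (lmFit, eBayes with trend, two-sided) on log2 of the peak number, expressed per 100000 in the library, plus 0.5, in one fit with all autosomal 100 kb windows of a mean of at least 1 peak, with Benjamini-Hochberg adjustment over all rows at a threshold of 0.05. Covered bases were compared by two-sided exact permutation of 5 against 5 libraries. Strong peaks overlapping by at least 1 bp were merged into regions. Regions in 2 or more libraries were tested with two-sided Fisher's exact tests, adjusted over the genome. Named regions are the exclusive ones, the 2 with the highest mean fold per locus and tissue among those in all 5 libraries, and the widest in all 10; regions within a centre, and those used as examples, were chosen by position or after their values were seen. Alternatives changed the −log10 q threshold (3, 10), the peak set (the 50000 strongest, every row, a common −log10 p floor), the scaling, filter, added constant (1), interval (25 or 50 kb trimmed), overlap (50%), libraries and replicate block. The code was tested on simulated data. Other steps ran in Python 3.11.15 with pandas 2.3.3, NumPy 2.4.6, SciPy 1.17.1 and, for plots, matplotlib 3.10.9.

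The loci, lists and tests were chosen with earlier results of these data known. Marker genes, gene lists and the genes most like each member were planned, but without an rn6 annotation they could not be placed and are not analysed here. Motifs were searched on both strands of the 250 bases before each RefSeq start in GRCr8. Neighbouring genes are named from RefSeq on GRCr8.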

Additional observations from a re-analysis of the deposited data

Results flagged for a closer look

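In 55 sets of 5 libraries (4 measures per locus and tissue, and the folds of named regions present in all 5), 2 values stood far from the other 4 by Dixon's criterion, where chance gives about 1 in 20 sets. At Adipoq, strong peaks of muscle replicate 5 covered 6057 bp, against 3973 to 4500 bp in the other muscle libraries. This library also had the most strong peaks of any, 119528. At Cebpa, muscle replicate 2 had 7 strong peaks, against 10 to 11 in the other muscle libraries, while its covered length of 7971 bp lay within their 7512 to 8771 bp.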

How the results depend on the processing

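Values are adipose minus muscle, on the log2 scale for peak numbers and in bp for covered length. With the replicate block, which joins libraries of the same rat number, no call on peak numbers changed: strong peaks gave 0.62 at Cebpa (limma adjusted p = 0.0327), -0.01 at Adipoq, 0.24 at Lep and 0.17 at Lpl, and all peaks -0.50, 0.14, 0.38 and -0.32 at Adipoq, Lep, Cebpa and Lpl. The paired sign-flip p for covered length was 0.312, 0.75, 0.312 and 0.562 at Adipoq (-1016), Lep (259), Cebpa (-1166) and Lpl (-492); 5 pairs cannot go below 0.0625, so no call could be gained there. Same-numbered libraries did not deviate together (correlations from -0.07 to 0.05), and not every library correlated best with its own number, so the numbers were not taken as pairs. The block called 3241 windows as higher in adipose and 4006 as higher in muscle for strong peaks, in place of 3445 and 4123.

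For strong peaks, Adipoq turned to 0.43 at −log10 q ≥ 10 and 0.46 in the 50000 strongest peaks. Lep turned to -0.0604 without scaling, -0.14 with adipose replicates 1 and 5 and -0.49 at −log10 q ≥ 10, and passed at 0.70 with 25 kb trimmed. Its centre alone could not be fitted. Cebpa no longer passed without scaling (0.31), without the window filter (0.62, adjusted p = 0.0527), in its centre (0.23), with every row (0.26), with adipose replicates 1 and 5 (0.39) or in the 50000 strongest peaks (0.45). Lpl turned to -0.14 without scaling, -0.16 with 25 kb and -0.84 with 50 kb trimmed, and -0.23 at −log10 q ≥ 3. For all peaks, Adipoq no longer passed without scaling (-0.0252), with 25 or 50 kb trimmed (-0.40 and -0.0878) or at a common −log10 p floor (-0.42). Lep passed without scaling (0.65). Cebpa no longer passed without the filter (0.38), with 25 kb trimmed (0.11), with every row (0.0507) or with adipose replicates 1 and 5 (0.24), and turned to -0.28 with 50 kb trimmed. Lpl turned to 0.18 without scaling and no longer passed with adipose replicates 1 and 5 (-0.33) or at the common floor (-0.21). For covered length, Adipoq gave 133.6 in the 50000 strongest peaks, -2086 with adipose replicates 1 and 5 and 118.8 scaled to 100 Mb, an alternative added after seeing the data. Lep gave -731.6 at −log10 q ≥ 10 and -1610 with adipose replicates 1 and 5. Cebpa gave 267.6 at −log10 q ≥ 3, -2192 at 10 (exact permutation p = 0.00794), -1193 in the 50000 strongest peaks (exact permutation p = 0.0476), -2960 with adipose replicates 1 and 5 and 1220 scaled. Lpl gave -1147 with 50 kb trimmed, 48.6 at −log10 q ≥ 3, 254.2 in the 50000 strongest peaks and 2198 scaled. Covered length is unscaled as reported. Windows called on strong peaks as higher in adipose and in muscle numbered 9744 and 5922 at −log10 q ≥ 3 and 2105 and 3856 with adipose replicates 1 and 5. The cause of these changes was not tested.

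Adipose-exclusive regions numbered 2, 0, 6 and 3 in place of 1 at −log10 q ≥ 3, ≥ 10, in the deposited lists and in the 50000 strongest peaks, 0 with 25 or 50 kb trimmed, and 2 with adipose replicates 1 and 5. Muscle-exclusive regions numbered 4 in place of 2 at −log10 q ≥ 10, 1 in the 50000 strongest, 4 at 50% cover, 1 and 0 with 25 and 50 kb trimmed, and 9 with adipose replicates 1 and 5. The smallest adjusted p was then above 0.05 at a −log10 q of 3 (0.0705), in the deposited lists (0.107), at 50% cover (0.0531) and with adipose replicates 1 and 5 (0.166).

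Leaving out 1 library in turn gave, for strong peaks, -0.20 to 0.11 at Adipoq, 0.06 to 0.37 at Lep, 0.46 to 0.72 at Cebpa (passing in all 10) and 0.01 to 0.29 at Lpl. All peaks gave -0.59 to -0.42 at Adipoq, 0.05 to 0.20 at Lep, 0.27 to 0.47 at Cebpa (adjusted p from 0.0128 to 0.115, passing in 5 of 10) and -0.36 to -0.28 at Lpl. Covered length ran from -1535 to -657.4 at Adipoq, -529.4 to 1008 at Lep, -1728 to -364.9 at Cebpa and -1109 to 292.1 at Lpl. Exclusive regions numbered 1 to 4 in adipose (4 without adipose replicate 1, 2 without muscle replicate 3) and 2 to 5 in muscle (5 without adipose replicate 2). Results not listed kept their direction and side of the threshold under the alternatives run.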

Other observations

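Which adipose libraries shared a strong region was uneven over the genome as well as at these loci. On the autosomes 6242 strong regions were found in exactly 3 adipose libraries and in 0 muscle libraries. Replicates 2, 3 and 4 made up 2070 of these (33.2%). They have almost no Y peaks and are also the deepest adipose libraries, and the part of either was not tested. Replicates 3, 4 and 5 made up 16.8%, and replicates 2, 3 and 5 made up 15.9%, while each of the other 7 combinations of 3 libraries held between 2.90 and 6.81%. At the 4 loci the 10 such regions were 6 of replicates 2, 3 and 4, 3 of replicates 2, 3 and 5, and 1 of replicates 1, 2 and 5.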
